A study of Mus musculus with 8 samples.

Results

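The 9 loci described here are those of the genes Kmt2a, Mllt3, Mllt1, Aff1, Aff4, Dot1l, Men1, Psip1 and Cdk9, which encode MLL, its fusion partner AF9 and the proteins that tether MLL fusions to chromatin or carry their elongation activity. Peaks were taken where the summit lay in the mm10 body of one of these genes or within 20 kb of it, and overlapping peaks (1 bp or more) were joined into regions across the 8 libraries. This gave 35 regions out of 32730 in the whole data set. ATAC-seq marks open chromatin because its transposase cuts and tags DNA where nucleosomes leave it free. The cells were GFP-positive, sorted leukaemia cells of mouse bone marrow with MLL-AF9 and TetO-Klf4, a Klf4 transgene switched on by doxycycline, labelled C57BL/7. There were 4 groups, at 0h, 6h, 12h and 24h, of 2 libraries each, and all share the fusion and the transgene. Doxycycline at 0h, the way the fusion was introduced and the use of separate mice for the 2 libraries of a time are not stated in the labels, so the spread between libraries may be technical.

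MLL, encoded by Kmt2a, is a histone methyltransferase that keeps Hox genes active in blood progenitors. In MLL-AF9 its amino-terminal part, which binds menin (Men1) and through it LEDGF (Psip1), is joined to the end of AF9 (Mllt3). That end of AF9, like that of its paralogue ENL (Mllt1), binds either the AF4-family scaffolds (Aff1, Aff4) of the super elongation complex, which brings the kinase CDK9 to paused RNA polymerase, or the histone methyltransferase DOT1L.

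Each library has its own peak list, of 14826 to 21903 peaks on the main chromosomes. The local background, a measure of depth, lay between 2.23 and 2.67 tags per kb in 7 libraries and at 1.5 in 0h replicate 2, in which a missing peak says least. Of 12 myeloid and leukaemia marker genes, 6 to 9 per library had a summit no farther than 2 kb from the gene body, and Mpo had none in any library. Of 6 genes per list, 1 to 3 had such a peak for the B lineage, 1 to 2 for T and NK cells, and 1, Klf1, for erythroid cells. For stroma and endothelium the number was 3 and 2 in the 0h libraries, 2 in each of 6h and 12h, and 0 and 1 in those of 24h, so it was lowest where the lists were shortest. Cd3e, Cd3g, Cd8a, Col1a2, Cdh5 and Kdr were without a peak in all libraries, and the other 3 stroma and endothelium markers had one in at least 1 library. The part of other cells in the results was not tested.

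The promoters below are shown for how they differ in accessibility: of the 12 listed, 10 were overlapped by a peak in all 8 libraries, that of the most downstream Aff1 start in 4 libraries, and that of the internal Mllt3 start in 0. Sequences are RefSeq's on GRCm38.p6, the 250 bases before each start site, read 5′ to 3′. Of the 9 genes, 8 had a promoter sequence, 12 sequences in all. Capitals mark matches on either strand to GGGCGG, the GC box bound by SP and KLF proteins, and to GGGNGTGG, a KLF-type motif, and neighbouring or overlapping matches run together. The Aff4 promoter and the internal Mllt3 start hold neither.
Kmt2a, chr9:44881290-44881539, minus strand: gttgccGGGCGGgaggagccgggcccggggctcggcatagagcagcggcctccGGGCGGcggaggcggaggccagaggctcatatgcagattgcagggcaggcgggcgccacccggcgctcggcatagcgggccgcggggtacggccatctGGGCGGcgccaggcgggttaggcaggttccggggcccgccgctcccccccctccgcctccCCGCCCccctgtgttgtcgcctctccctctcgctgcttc
Mllt3 main start, chr4:88033408-88033657, minus strand: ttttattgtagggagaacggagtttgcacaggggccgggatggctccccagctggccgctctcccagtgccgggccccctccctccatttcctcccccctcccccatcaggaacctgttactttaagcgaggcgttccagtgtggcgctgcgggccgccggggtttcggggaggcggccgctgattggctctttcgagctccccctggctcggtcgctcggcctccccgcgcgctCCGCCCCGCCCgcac
Mllt3 internal start, chr4:87806324-87806573, minus strand: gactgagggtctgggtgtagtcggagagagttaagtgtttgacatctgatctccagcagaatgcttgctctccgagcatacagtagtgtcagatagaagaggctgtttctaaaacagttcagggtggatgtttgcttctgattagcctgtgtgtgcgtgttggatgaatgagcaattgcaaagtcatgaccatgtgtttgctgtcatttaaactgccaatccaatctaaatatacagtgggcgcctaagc
Aff1 downstream start, chr5:103754323-103754572, plus strand: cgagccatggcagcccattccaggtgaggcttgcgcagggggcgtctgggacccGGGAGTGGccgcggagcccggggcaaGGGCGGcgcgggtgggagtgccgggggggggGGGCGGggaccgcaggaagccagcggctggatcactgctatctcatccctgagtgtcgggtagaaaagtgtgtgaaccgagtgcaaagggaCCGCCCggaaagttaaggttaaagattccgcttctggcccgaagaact
Aff4, chr11:53350517-53350766, plus strand: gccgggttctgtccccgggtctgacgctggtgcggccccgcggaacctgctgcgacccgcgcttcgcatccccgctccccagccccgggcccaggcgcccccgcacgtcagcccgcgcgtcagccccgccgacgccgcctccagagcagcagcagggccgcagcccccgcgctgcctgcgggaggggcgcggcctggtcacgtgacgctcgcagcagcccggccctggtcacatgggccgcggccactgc
Dot1l, chr10:80754953-80755202, plus strand: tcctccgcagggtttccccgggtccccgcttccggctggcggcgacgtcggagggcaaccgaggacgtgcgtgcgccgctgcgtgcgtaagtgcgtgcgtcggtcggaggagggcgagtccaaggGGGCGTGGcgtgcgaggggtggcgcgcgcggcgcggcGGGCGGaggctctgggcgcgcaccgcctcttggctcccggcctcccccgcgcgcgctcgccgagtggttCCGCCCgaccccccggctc

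The KLF-type motif occurred in 2 of the 12 member promoters, as GGGCGTGG at Dot1l, whose first base is at −125 from the start site, and as GGGAGTGG at the downstream start of Aff1, at −196. Among all 32851 promoters of 300 bases in the table, 17.6% held it. GGGCGG was found in 10 of the 12 and in 35.7% of all promoters. The ETS-type motif CCGGAAG was found in 3, those of Cdk9, Dot1l and Mllt1, against 8.86% of all, and CCAAT in 7 against 37.4%. In these counts the same GC box and the same CCAAT box enter once for each of the 3 overlapping Men1 promoters. The main promoters were rich in CG dinucleotides. Those of Kmt2a, Mllt3, Mllt1, Aff4, Dot1l and Cdk9 held 36, 29, 46, 44, 49 and 39 in 300 bases, where the median over all promoters was 7. The 3 overlapping Men1 promoters held 11, 16 and 16, and the internal Mllt3 start held 4. A motif match describes letters and is no evidence that a factor bound.

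All 9 genes had a region at an end of the gene that was called in every library. Of the 15 regions missing from at least 1 library, 8 were in the window of Aff1, 3 in that of Mllt1, 2 in that of Dot1l and 1 each in those of Mllt3 and Aff4. Of the 35 regions, 20 (57.1%) were called in all 8 libraries, against 28.0% of all merged regions, and 7 (20%) in 1 library, against 27.9% of all. Within 1 kb of an end of a protein-coding gene, 14 of 16 member regions (87.5%) were called in all 8, against 61.3% of all such regions. Farther out the numbers were 6 of 19 (31.6%), against 13.4%. Distance was taken from the outer gene ends, so these 6 include regions over listed promoters inside Aff1, Fpgs and Sh2d3c. Of the 12 member promoters, 10 (83.3%) were overlapped by a peak in all 8 libraries, against 31.1% of protein-coding promoters. The 10 include 3 Men1 promoters that overlap one another. These shares describe the loci and were not tested.

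**Figure D1:**
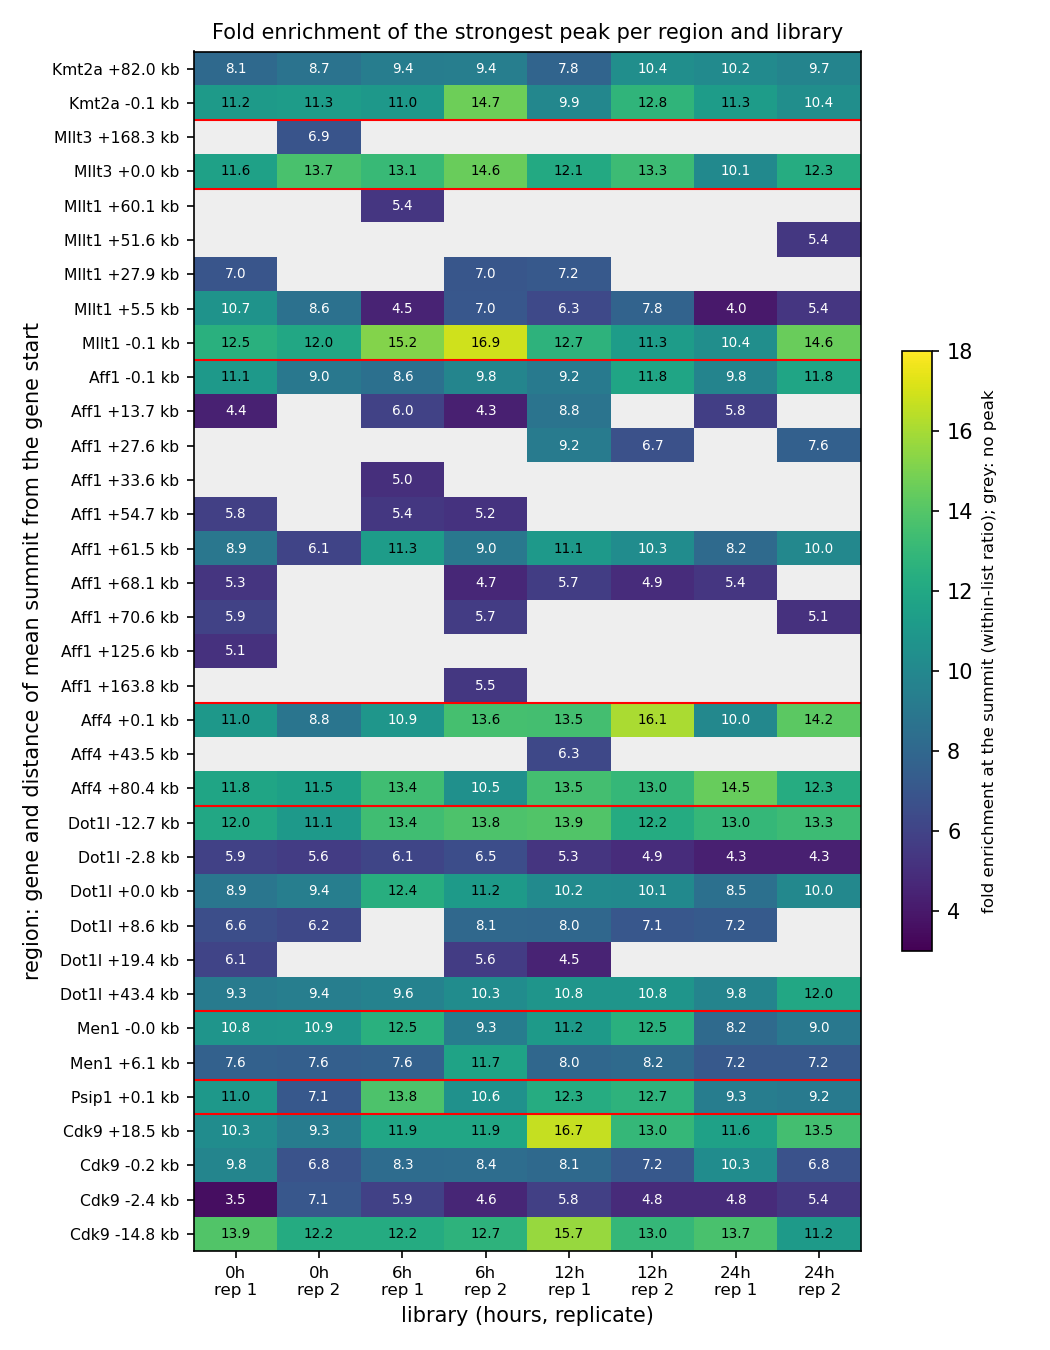
Fold enrichment of the strongest peak in each of the 35 regions (rows, named by gene and distance in kb of the mean summit from the gene start, or from the higher end for Psip1) in each of the 8 libraries (columns). Grey cells hold no peak; the 20 complete rows are the regions called in all libraries, and the broken rows lie mostly in Aff1, Mllt1 and Dot1l.

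The fusion partners Kmt2a and Mllt3 kept 1 open start site each and had little else. Kmt2a (gene 214162, chromosome 9, 44803355 to 44881352, minus strand) had 2 regions, both called in every library. The first lay over its promoter (44881241 to 44882221), with summits at −249 to −105 bases from the start site. Its fold enrichment, the authors' value per peak for tags stacked at its summit over those around it, usable within 1 list, was 11.2 and 11.3 in the 0h libraries, 11 and 14.7 in those of 6h, 9.94 and 12.8 in those of 12h, and 11.3 and 10.4 in those of 24h. The second (44799178 to 44799755) lay 82.0 kb from that start, in Tmem25 and 86 bp from an end of Ttc36. Fold enrichment depends on depth, so libraries were compared by rank: the percentile of a region's fold among the 9170 regions called in all 8 libraries. For the Kmt2a promoter it was 59.6 and 74 in the 0h libraries, 57.6 and 92.4 in those of 6h, 33.8 and 78.2 in those of 12h, and 65.7 and 49.6 in those of 24h. Each later time overlapped 0h, except that by −log10 p both 24h libraries ranked below it.

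Mllt3 (gene 70122, chromosome 4, 87769925 to 88033407, minus strand) is the longest of the 9 genes at 263 kb and had 0.659 regions per 100 kb of its window, where the median over 21883 protein-coding genes was 2.33. Its main promoter was open in every library (88032941 to 88033708), with summits at 7 to 68 bases downstream of the start site. Fold was 11.6 and 13.7 in the 0h libraries, 13.1 and 14.6 in those of 6h, 12.1 and 13.3 in those of 12h, and 10.1 and 12.3 in those of 24h. Its rank was 65.9 and 91.8 in the 0h libraries, 82.1 and 91.8 in those of 6h, 64.2 and 83.2 in those of 12h, and 50.2 and 72.5 in those of 24h, and each later time overlapped 0h. The internal RefSeq start, at 87806323, had no peak in any library. The 1 other region in this gene (87865103 to 87865278) was called in 0h replicate 2 alone, with fold 6.92.

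Among the partner genes of the elongation complex, Mllt1 held an internal region whose rank was lower at every later time than at 0h. Its promoter shared that direction at 12h only. Mllt1 (gene 64144, chromosome 17, 56892608 to 56935509, minus strand) encodes ENL, a reader of acylated histones. Its promoter region (56935308 to 56935971) had a fold of 12.5 and 12 in the 0h libraries, 15.2 and 16.9 in those of 6h, 12.7 and 11.3 in those of 12h, and 10.4 and 14.6 in those of 24h. In rank it was highest at 6h, with 95.1 and 98.6 against 77.8 and 81.2 at 0h, while both 12h libraries, at 71.5 and 58.2, ranked below 0h and the 24h libraries, at 54.0 and 92.9, lay on either side.

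A second Mllt1 region (56929490 to 56930500), inside the gene, also counted as called in all 8 libraries. Its fold was 10.7 and 8.6 in the 0h libraries, 4.51 and 7.05 in those of 6h, 6.31 and 7.76 in those of 12h, and 4.04 and 5.38 in those of 24h. Both 0h summits lay 5.27 kb from the gene start, near position 56930243 and 3 bp apart. The peak covered that position in both 0h libraries, in 6h replicate 2 and in both 12h libraries. In 6h replicate 1 and both 24h libraries it did not. The summits there lay at −578, −680 and −478 bp from it in genomic coordinates, and the peaks ended before it. On this minus-strand gene that is farther from the gene start, not upstream. The 24h peaks shared the merged region with the 0h site because they overlapped peaks that covered it. Both overlapped the broad peak of 0h replicate 1 (56929655 to 56930310), away from its summit, and those of both 12h libraries. That of 24h replicate 2 (56929677 to 56929961) also overlapped the narrower peaks of 0h replicate 2 (56929908 to 56930295) and 6h replicate 2.

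The number of tags at the Mllt1 summits was 19 and 10 in the 0h libraries, 6 and 12 in those of 6h, 10 and 12 in those of 12h, and 6 and 7 in those of 24h. In 6h replicate 1, 12h replicate 2 and both 24h libraries, tags, fold and rank belong to summits away from the 0h position. In 12h replicate 2 the peak covered that position, but its summit lay at −229 bp from it in genomic coordinates. Their values at that position are not known. With 95% Poisson intervals, which cover counting error only, 19 tags allow 11.4 to 29.7 and 6 tags allow 2.2 to 13.1, so single libraries are weakly separated. In rank the region stood at 51.2 and 41.0 at 0h and between 0.109 and 12.6 in the 6 later libraries. A rank lower in all later libraries than in either 0h library was found for 3.21% of the 9170 regions, and 1 of the 20 member regions. A gap as wide as the 28.4 points here was found for 3 of the 9170, itself included. It runs from 41.0 in 0h replicate 2 to 12.6 in 12h replicate 2, the library with the −229 bp summit. This region was singled out after its values were seen, so no p-value is given. The other regions of the Mllt1 window were a site 27.9 kb into the gene, called in 0h replicate 1, 6h replicate 2 and 12h replicate 1 (fold 6.98, 6.99 and 7.2), and 2 sites at Acsbg3 called in 1 library each.

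Aff1 (gene 17355, chromosome 5, 103692362 to 103855322, plus strand), which encodes the scaffold AF4, had the most regions, 10. Of these, 2 were called throughout. The outer start (103691708 to 103692838) had a fold of 11.1 and 9 in the 0h libraries, 8.56 and 9.83 in those of 6h, 9.2 and 11.8 in those of 12h, and 9.76 and 11.8 in those of 24h. In rank both 6h libraries, at 26.4 and 40.8, were below both 0h libraries, at 58.4 and 46.4, and 12h and 24h overlapped 0h. A region 61.5 kb into the gene (103752905 to 103754486) covered one of the listed downstream starts and ended before the other, at 103754573, whose promoter is printed above. It had a fold of 8.94 and 6.1 in the 0h libraries, 11.3 and 8.98 in those of 6h, 11.1 and 10.3 in those of 12h, and 8.16 and 9.98 in those of 24h. In rank this downstream region stood at 26.9 and 9.37 at 0h, and above both values in both libraries of 6h (61.8 and 30.4) and of 12h (51.0 and 42.9), while 24h, at 25.4 and 44.5, overlapped 0h. By −log10 p, 6h overlapped 0h too.

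Inside Aff1, 7 weaker regions were called in some libraries only, and 1 more lay 886 bp beyond its end. The region 27.6 kb into the gene (103719686 to 103720203) had no peak at 0h or 6h. Its fold was 9.23 and 6.73 at 12h, and 7.61 in 24h replicate 2, with no peak in 24h replicate 1. It was the 1 member region called in both libraries of a later time and in neither 0h library. A region at 54.7 kb was called in 0h replicate 1 (fold 5.84) and in both 6h libraries (5.43 and 5.21) and in no later one. Those at 13.7, 68.1 and 70.6 kb were called in 5, 5 and 3 libraries, of several times. Aff1 peaks numbered 7 and 3 at 0h, a wider gap than between the libraries of any later time. With lists cut to equal length, the 14826 strongest peaks of each, Aff1 had 3 or 4 peaks in every library.

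**Figure D2:**
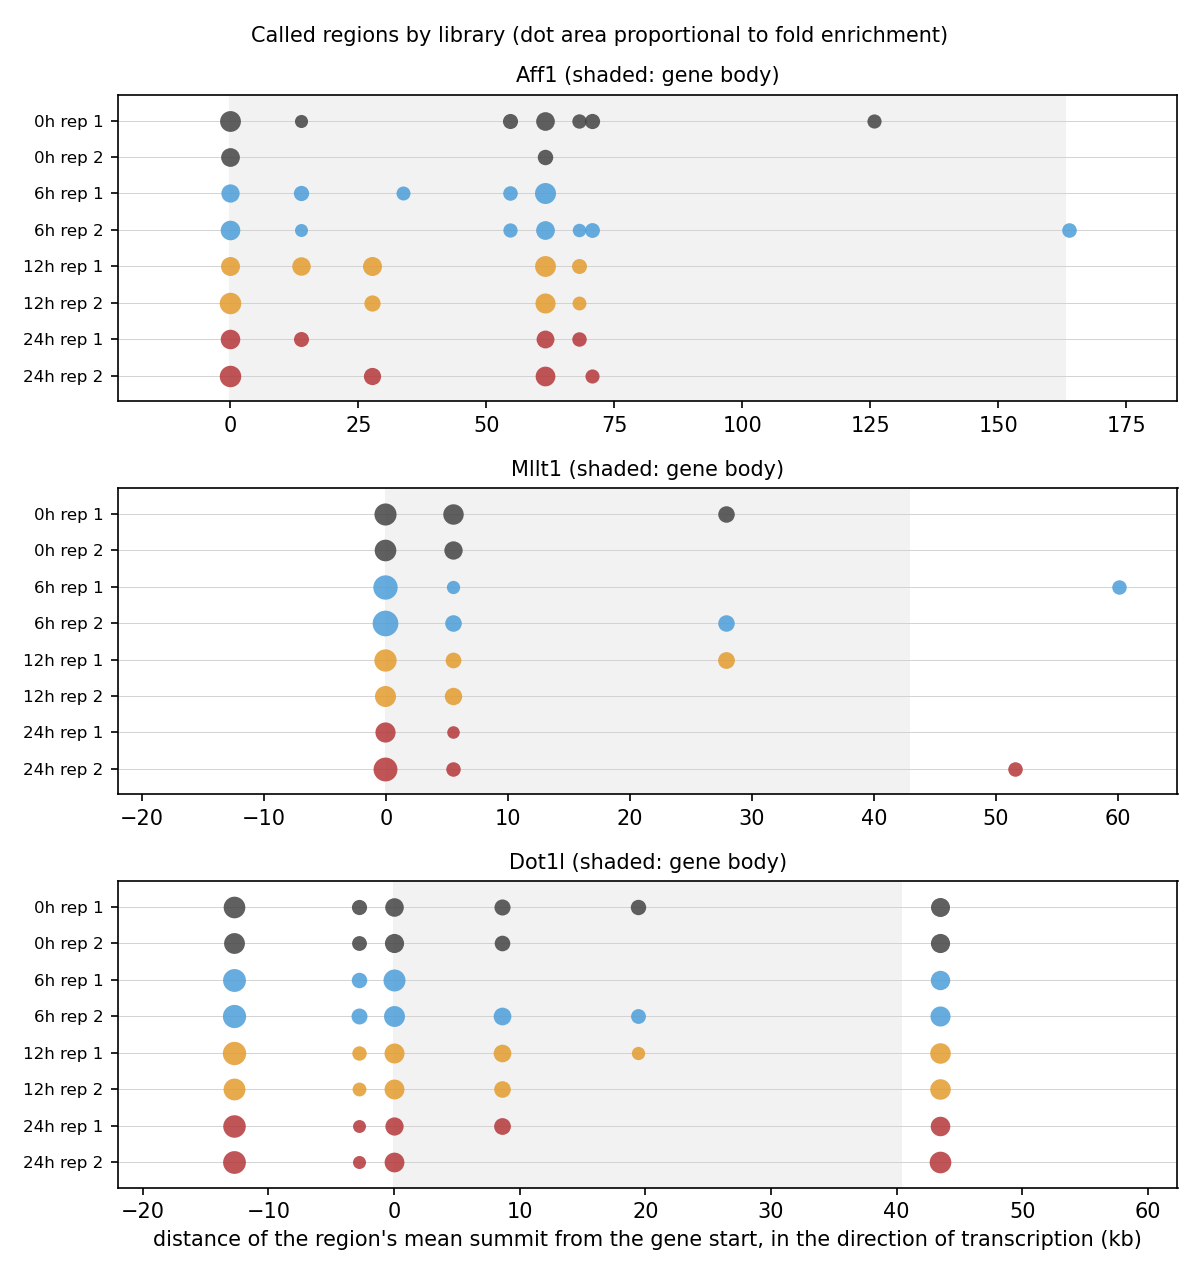
Called regions at Aff1, Mllt1 and Dot1l by distance from the gene start in kb (horizontal axis) in each library (rows); dot area is proportional to fold enrichment and the shaded span is the gene body. The regions at the gene starts and at 61.5 kb of Aff1 form full columns, while Aff1 has 5 further dots at 0h replicate 1 and 0 at 0h replicate 2.

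Aff4 (gene 93736, chromosome 11, 53350640 to 53421830, plus strand) encodes the main scaffold of the super elongation complex. Its promoter (53350461 to 53351237) was called throughout, with a fold of 11 and 8.83 in the 0h libraries, 10.9 and 13.6 in those of 6h, 13.5 and 16.1 in those of 12h, and 10.0 and 14.2 in those of 24h. In rank it was above both 0h values (57.2 and 44.2) in both 12h libraries, at 80.7 and 98.1, while 6h, at 56.5 and 84.6, and 24h, at 49.4 and 90.4, overlapped 0h. By −log10 p the libraries of 6h and 24h were above 0h too. The other constant region in its window (53430399 to 53431594) lay 192 bp from an end of Uqcrq, a gene of the respiratory chain, with a fold of 11.8 and 11.5 in the 0h libraries, 13.4 and 10.5 in those of 6h, 13.5 and 13 in those of 12h, and 14.5 and 12.3 in those of 24h. It overlapped 0h in rank at 6h and 24h and was above it at 12h, and by −log10 p also at 24h. In addition, 1 site 43.5 kb into the gene was called in 12h replicate 1 alone (fold 6.26).

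Dot1l (gene 208266, chromosome 10, 80755101 to 80795461, plus strand) had 6 regions, or 7.47 per 100 kb, of which 4 were called throughout. The promoter (80754939 to 80755487), with the KLF-type match printed above, had its summit at −80 to −74 bases from the start site in every library, the narrowest range among the 8 genes with a listed start. Its fold was 8.86 and 9.39 in the 0h libraries, 12.4 and 11.2 in those of 6h, 10.2 and 10.1 in those of 12h, and 8.51 and 10.0 in those of 24h. In rank both 6h libraries, at 74.2 and 58.7, were above both 0h values of 25.9 and 52.0, and 12h and 24h overlapped 0h. By −log10 p both 12h libraries were above 0h as well. An upstream region at −2.83 kb (80751443 to 80752553) had a fold of 5.91 and 5.64 in the 0h libraries, 6.14 and 6.52 in those of 6h, 5.32 and 4.9 in those of 12h, and 4.29 and 4.34 in those of 24h. Both 12h and both 24h libraries ranked below both 0h libraries, but all 8 ranks were within the lowest 6.06%. At a −log10 q of at least 5 this region kept its peaks at 0h, 6h and 12h and had none at 24h, whereas at equal list length it was present in both 24h libraries and missing in 12h replicate 2 alone.

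Inside Dot1l, a region 8.57 kb from the start (80763278 to 80763869) was called in 6 libraries, with a fold of 6.62 and 6.25 in the 0h libraries, no peak and 8.06 in those of 6h, 7.99 and 7.08 in those of 12h, and 7.22 and no peak in those of 24h. One library of 6h and one of 24h lacked it, so no time lacked it in both. A weaker region at 19.4 kb was called in 0h replicate 1, 6h replicate 2 and 12h replicate 1. The remaining constant regions lay at ends of Ap3d1 and Plekhj1. The one at Ap3d1 (80741851 to 80742719) was the strongest of the Dot1l window by mean percentile, with a fold of 12 and 11.1 in the 0h libraries, 13.4 and 13.8 in those of 6h, 13.9 and 12.2 in those of 12h, and 13 and 13.3 in those of 24h.

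The genes of the tethering proteins had few and constant regions. Men1 (gene 17283, chromosome 19, 6334979 to 6340894, plus strand) encodes menin. The region over its start (6334408 to 6335446) had a fold of 10.8 and 10.9 in the 0h libraries, 12.5 and 9.29 in those of 6h, 11.2 and 12.5 in those of 12h, and 8.17 and 8.99 in those of 24h. In rank the 24h libraries, at 25.6 and 31.6, were below both 0h libraries, at 53.8 and 70.7, while 6h and 12h overlapped 0h. The other region in the window lay 94 bp from an end of Map4k2, the neighbouring gene. Psip1 (gene 101739, chromosome 4, 83455680 to 83486463) encodes LEDGF, which reads methylated histones in transcribed genes. Its 1 region lay at the higher end of the gene (83485728 to 83486806), with a fold of 11 and 7.12 in the 0h libraries, 13.8 and 10.6 in those of 6h, 12.3 and 12.7 in those of 12h, and 9.35 and 9.2 in those of 24h. The 0h ranks of 56.2 and 20.6 spanned those of 24h, 40.6 and 34.5, and both 12h libraries, at 66.1 and 76.6, were above 0h, though not by −log10 p.

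Cdk9 (gene 107951, chromosome 2, 32705782 to 32712784, minus strand) encodes the kinase subunit of P-TEFb and had 4 regions, all called throughout. The promoter region (32712291 to 32713709) had its mean summit within the microRNA gene Mir3960. Its fold was 9.82 and 6.83 in the 0h libraries, 8.31 and 8.38 in those of 6h, 8.14 and 7.15 in those of 12h, and 10.3 and 6.8 in those of 24h. Ranks were 38.5 and 17.4 at 0h and between 7.73 and 52.6 later, with both 12h libraries below 0h by fold, though not by −log10 p. A region 18.5 kb downstream, at a promoter inside Fpgs (32693853 to 32694386), had a fold of 10.3 and 9.27 in the 0h libraries, 11.9 and 11.9 in those of 6h, 16.7 and 13 in those of 12h, and 11.6 and 13.5 in those of 24h. Its rank was 45.3 and 50.1 at 0h and 66.9 to 98.2 in the 6 later libraries. A rank higher in all later libraries than in either 0h library was found for 4.10% of the 9170 regions, and a gap as wide as the 16.8 points here for 28 of them (0.305%). It too was singled out after its values were seen, and Fpgs, a folate enzyme gene, is not one of the 9. The other regions lay at −2.37 kb and −14.8 kb from the Cdk9 start. The latter, at a promoter of Sh2d3c (32727417 to 32727696), was the strongest of the window by mean percentile, with a fold of 13.9 and 12.2 in the 0h libraries, 12.2 and 12.7 in those of 6h, 15.7 and 13 in those of 12h, and 13.7 and 11.2 in those of 24h, and both 6h libraries ranked below 0h. The former was weak, with ranks of 19.8 or less.

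**Figure D3:**
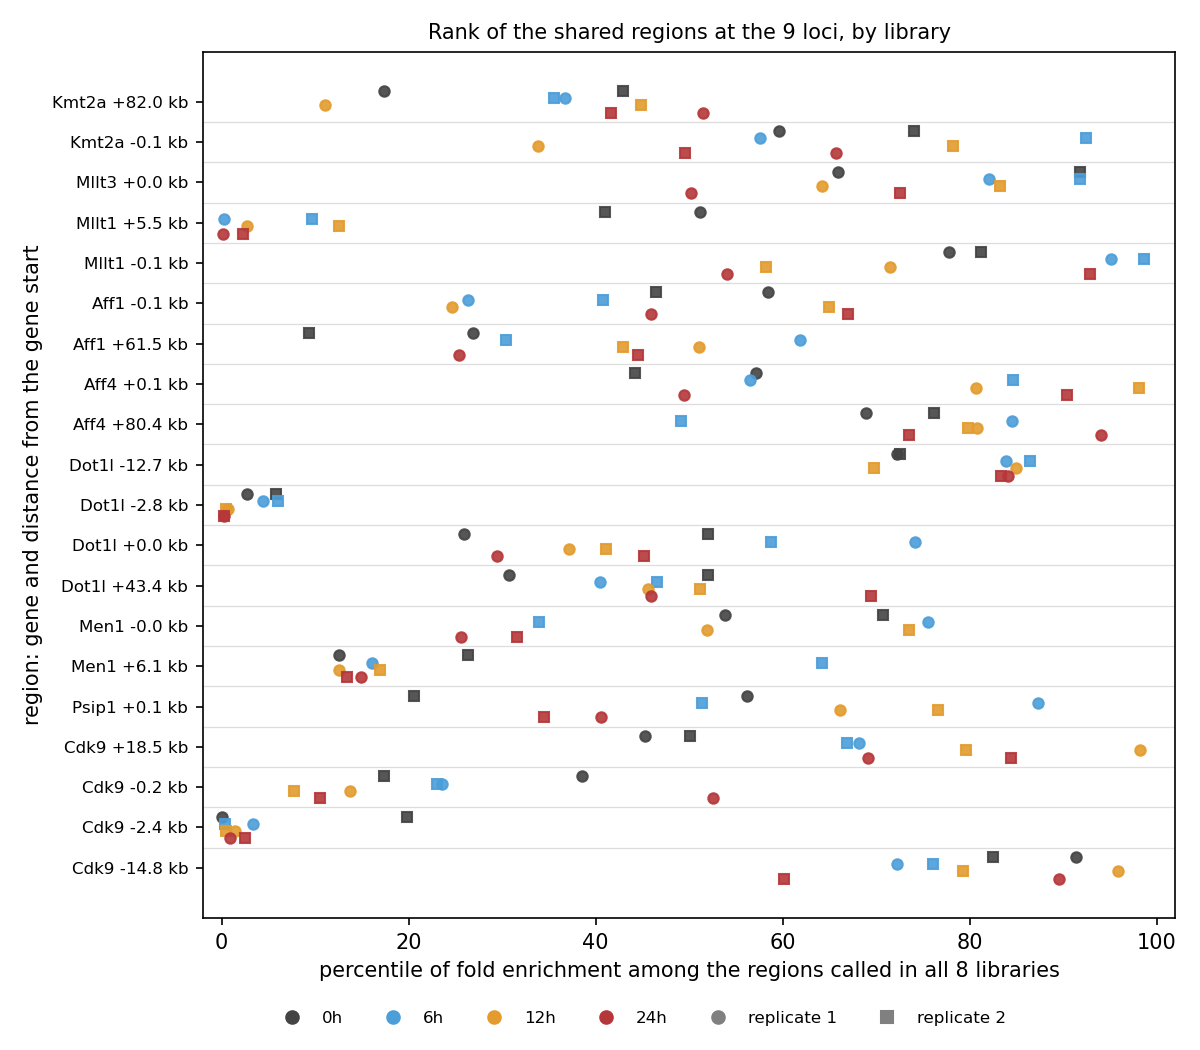
Percentile of fold enrichment among the 9170 regions called in all 8 libraries (horizontal axis) for the 20 member regions (rows); colour gives the time, circles replicate 1 and squares replicate 2. The Mllt1 region at +5.5 kb has its 0h libraries at 51.2 and 41.0 and all later ones at or under 12.6, and the Cdk9 window's region at +18.5 kb has all later ones above 0h.

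Set against 0h, presence of peaks changed at 1 member region. At 6h, 0 of 35 regions were gained (peaks in both later libraries and neither 0h library; 1.85% of all regions) and 0 were lost (2.34% of all). At 12h, 1 of 35 was gained (2.86%; 4.03% of all), the Aff1 region at 27.6 kb, and 0 were lost (1.45% of all). At 24h, 0 were gained (1.12% of all) and 0 lost (4.43% of all). A count of 0 or 1 in 35 is near these backgrounds. With 2 against 2 libraries, the smallest two-sided exact permutation p is 0.333, so no test was made. Of the 35 regions, 6 had no peak at 0h and could be gained, and 21 had a peak in both 0h libraries and could be lost.

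The counts rested on single libraries, at these loci as elsewhere. Without 0h replicate 1, 2 Aff1 regions were gained at 6h (7.77% of all regions under that setting) and 2 at 12h (12.7%), 0 were gained at 24h (5.33%), and 1 Mllt3 region was lost at each time (6.35%, 4.73% and 9.39% of all). Without 0h replicate 2, 1 Aff1 region was lost at 6h (15.7% of all) and 3 at 12h (12.1% of all), and the gained counts stayed at 0 for 6h (2.85% of all) and 1 for 12h (5.79% of all). At 24h 4 were lost (21.0% of all), 2 in Aff1 and 1 each in Mllt1 and Dot1l. Without 6h replicate 1, 1 Aff1 region was gained at 6h (7.34% of all). Without 6h replicate 2, 1 each of Mllt1 and Aff1 were gained (6.22% of all) and 1 of Dot1l was lost (4.95% of all). Without 12h replicate 2, 2 were gained at 12h (12.9% of all), in Aff1 and Aff4. Without 24h replicate 1, 1 each of Mllt1 and Aff1 were gained at 24h (3.99% of all) and 1 of Dot1l was lost (7.22% of all). The Aff1 gain at 12h remained under each of these settings that bear on 12h. That held by construction, because leaving out a library only loosens the rule.

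Calls anchored at summits, a setting chosen after seeing the data, took sites where the summits of both libraries of one time lay within 100 bp of each other. Of 15 such member sites of 0h, 1 was covered by no 24h peak, the Mllt1 site, against 12.1% of all such sites. None was uncovered at 6h (6.74% of all) or at 12h (4.04% of all). In the other direction, 1 of 16 sites of 6h (5.48% of all), 2 of 18 of 12h (9.12%) and 0 of 15 of 24h (3.57%) were covered by no 0h peak, all 3 in Aff1.

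Over the 20 constant regions, ranks at 24h were above both 0h libraries in 2 of 20 (17.0% of all 9170) and below both in 3 (16.4% of all). The 2 above were the Fpgs site and the Ap3d1 end near Dot1l, of which the latter overlapped 0h by −log10 p, and the 3 below were the Mllt1 site, the region at −2.83 kb of Dot1l and the Men1 start. At 6h they were above in 5 (16.3% of all) and below in 3 (15.7% of all), and at 12h above in 5 (15.9% of all) and below in 4 (16.9% of all).

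Counted per locus, peaks at the 9 loci summed to 28 and 25 in the 0h libraries, 24 and 29 in those of 6h, 28 and 24 in those of 12h, and 23 in each of 24h. No locus had more peaks in both libraries of a later time than in either 0h library, or fewer. Over all protein-coding genes with a peak, more were found for 3.28%, 7.88% and 1.67% at 6h, 12h and 24h, and fewer for 4.42%, 2.29% and 9.13%. The 24h lists were the shortest. The peaks at the 9 loci made up 0.152% and 0.155% of them, against 0.129% and 0.16% at 0h. Kmt2a had 2 peaks in every library.

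**Figure D4:**
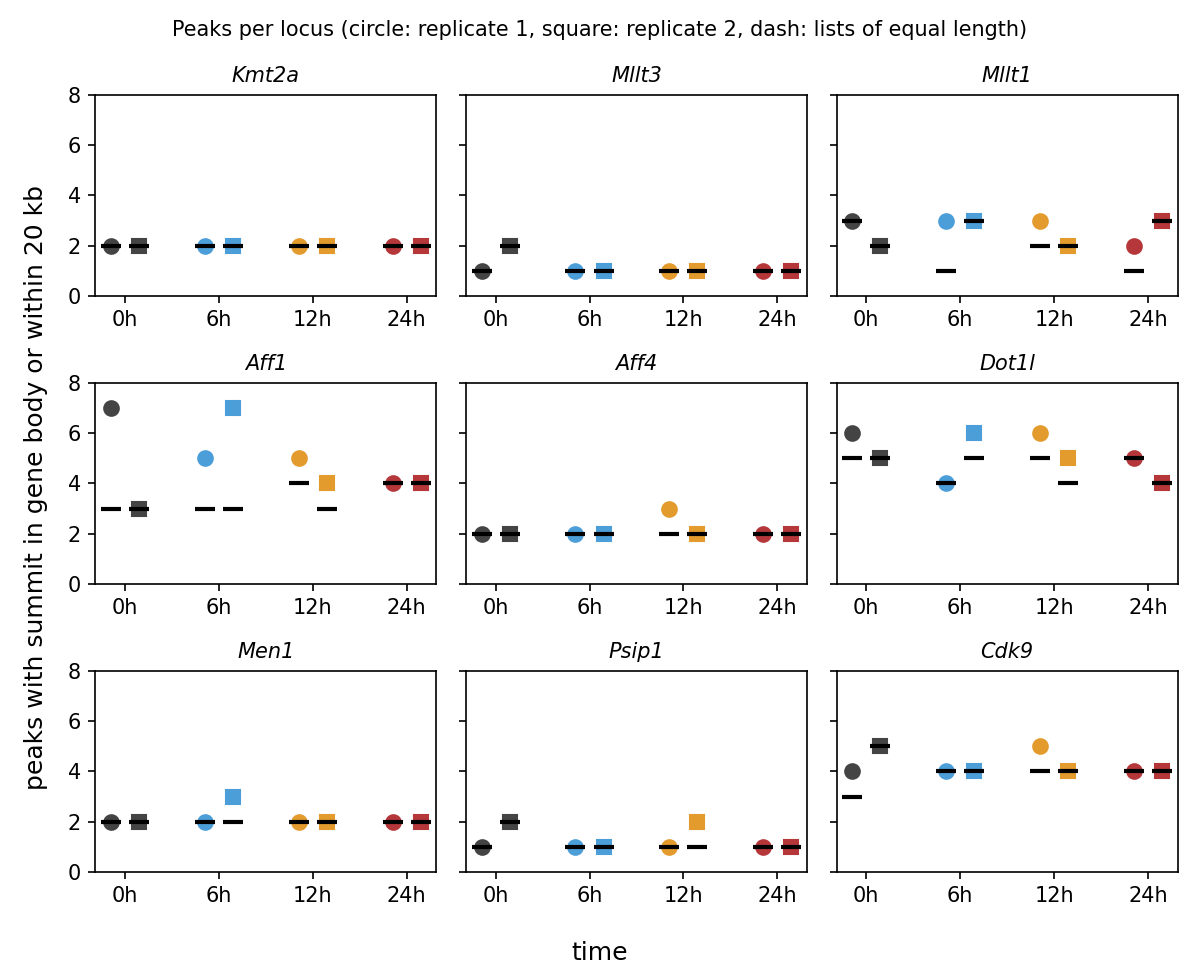
Number of peaks with a summit in the gene body or within 20 kb, per locus (panels), time (horizontal axis) and replicate (circle 1, square 2); dashes give the numbers when every list is cut to its 14826 strongest peaks. Aff1 spreads from 3 to 7 as deposited and from 3 to 4 at equal length, and Kmt2a stays at 2.

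The wider pathway was described with a list of 45 genes under the same 20 kb rule. It had 166 regions, 80 of them (48.2%) called in all libraries, against 28.0% of all merged regions. At 6h, 3 (1.81%; 1.85% of all regions) were gained and 2 (1.2%; 2.34% of all) lost, and at 12h 1 each (0.602%; 4.03% and 1.45% of all). At 24h, 3 regions (1.81%) were gained and 3 (1.81%) lost, against 1.12% and 4.43% of all regions. The 9 other genes of the super elongation complex and P-TEFb, among them Ell and Ccnt1, had 24 regions with 0 gained or lost at any time, as had the 4 genes of its 7SK inhibitor with 8. Of these regions, 13 of the 24 and 6 of the 8 were called in all 8 libraries and so could not be gained or lost. Over all regions each call taken singly had a share of 1.12% to 4.43%. Whether 0 over all times differs from the rest was not tested. Among pausing and elongation factors, the Paf1 window had 1 region lost (fold 4.76 and 6.86 at 0h) and 1 gained (3.45 and 3.94 at 24h), both nearest to Zfp36. At Cbx8, whose protein binds AF9, the gained region was that 21 bp from an end of Cbx2, with fold 8.41 and 11.6 at 24h, peaks in both libraries of 6h and 12h, and no peak at 0h. Bcor lost a site 32.2 kb inside the gene (fold 4.78 and 4.59 at 0h, no later peak). Among the MLL complex genes, a region 208 bp from an end of Ash2l, a shared subunit, was lost (fold 6.67 and 6.53 at 0h; peaks in 1 library of 6h and both of 12h), and a site 16.2 kb from Hcfc2 was gained (fold 5.6 and 5.24, no earlier peak).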

How the data were processed

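ATAC-seq peak lists of 8 libraries, 2 each at 0, 6, 12 and 24 hours, were used, grouped by the sample labels. BWA, SAMtools and MACS2 on mm10 were used by the authors, per the submitters' processing notes. Not given in the sources used here: versions, settings, and any removal of duplicates or shift of reads. Deposited was 1 list per library, so peaks were not called on pooled samples. Each peak carries, as deposited, a fold enrichment (a linear ratio), a −log10 p and a −log10 q (lowest 2.00), an integer score not used for results, and a summit position.

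Depth was read from the lists: fold and −log10 p give a whole-number pile-up and local background within 0.001 for 100.00% of peaks below the numeric limit, with more than 1 match for 0.06% to 2.33%. The lowest background over the smallest peak width gives tags per kb.

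Only the 19 autosomes and both sex chromosomes entered the merging (Python 3.11.15, pandas 2.3.3, SciPy 1.17.1). Genes came from RefSeq on GRCm38.p6, whose table holds no exons, so exon and intron are not given. Merging, calls and locus assignment were tested on simulated data. The members and lists were chosen with earlier results of these data known. The 9 genes are all named; at each, the rule named the start region, every gained or lost region, the constant region with the highest mean percentile and up to 2 regions of 1 time; further regions were described after their values were seen. Of the wider list, genes are named where a region changed at 24h, up to 4 per group. Alternatives were −log10 q of at least 5, equal list length, summits within 250 bp, windows of 10 kb, 50 kb and the gene body, each library left out, and a replicate block; ranks and summit-anchored calls were added after the data were seen.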

Additional observations from a re-analysis of the deposited data

How the results depend on the processing

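Of 101 recomputed values, 78 stayed within 1.5 times the value reported and 23 did not. At a −log10 q of at least 5, 2 member regions were lost at 24h in place of 0, the internal Mllt1 region and that at −2.83 kb of Dot1l. Windows of 50 kb held 55 regions, with 2 gained at 12h and 1 lost at 24h, and gene bodies alone held 21 regions. Shares over all regions are not given for the q cutoff and the windows, so these counts have no background to be read against. Calls anchored at shared summits gave 1 gained at 6h, 2 gained at 12h and 1 lost at 24h. Ranked by −log10 p, 4 of the constant regions were higher at 24h in place of 2, and 1 of them, the Fpgs site, was so under both. Leaving out each library in turn, gained counts ranged from 0 to 2 at 6h, 1 to 2 at 12h and 0 to 2 at 24h, and lost counts from 0 to 1, 0 to 3 and 0 to 4; a time then rests on 1 library. Under the replicate block, in which a call is made within each same-numbered pair and kept where both give it, counts were 1 gained at 12h and 0 otherwise, the same by construction. Depth limits absence most in 0h replicate 2.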
